A study of Mus musculus with 4 samples.

Results

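Socs3 and 9 other genes of gp130-STAT3 signalling (Osm, Lif, Osmr, Lifr, Il6ra, Il6st, Jak2, Stat3 and Bcl3) were followed through single nuclei of the mouse thalamus after a bleed. They were taken by symbol, and all 10 were present among the 40091 genes of the files. They had been chosen with their levels in the COL and NS groups known, so these levels are given as description and without a test. Adult C57BL6 mice, wild type (WT) in both groups, received saline in the NS group or collagenase IV (Coll IV, 0.01 U in 10 nl of saline) in the COL group. The injections went to the VPM and VPL nuclei of the right thalamus. Coll IV breaks down the wall of vessels, and the tissue was taken a week later. Each of the 4 libraries pooled the tissue of 3 mice of a group, whose RNA cannot be told apart within it, and n = 2 libraries per group.

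The files held UMI counts, in which each count stands for a single RNA molecule of a nucleus, with 68746459 to 77557870 UMIs per library. Of 32332 barcodes 32291 nuclei were kept, and 102 barcode sequences occurred in more than 1 library. The median UMIs of a kept nucleus were 6489 and 4649 in NS 1 and NS 2. They were 8664 and 8691 in COL 1 and COL 2, so depth per nucleus went with the group and cannot be told apart from it. Levels are given as CPM, the UMIs of a gene per 1000000 UMIs of the nuclei summed. Neurons carried Tcf7l2 (248, 353, 615 and 325 CPM in NS 1, NS 2, COL 1 and COL 2) and Slc17a6 (106, 99.9, 109 and 98.8 CPM), genes of thalamic neurons, and little of the cortical gene Slc17a7 (7.44, 17.7, 23.2 and 11.1 CPM). Nuclei were clustered without the pathway genes, and clusters were named from marker genes. The libraries NS 1, NS 2, COL 1 and COL 2 held 5013, 4345, 2923 and 2686 neurons and 2119, 3521, 1626 and 1557 oligodendrocytes. They held 400, 431, 210 and 305 oligodendrocyte precursors (OPC), 1166, 1053, 150 and 225 astrocytes, and 320, 341, 298 and 425 microglia. There were 34, 63, 28 and 48 vascular cells. They formed a single cluster, whose leading genes held the endothelial marker Flt1 and the pericyte marker Abcc9, and their subtypes were not separated. Macrophages numbered 319 and 471 in COL and 2 and 4 in NS, so no level is compared for them. A cluster led by Glis3 (89, 171, 100 and 97 nuclei) had a best marker score of 0.283, below the threshold of 0.3. A cluster of dividing cells led by Top2a (73 and 118 nuclei in COL) scored 0.413, but the next type scored 0.355, too close to name it. Both clusters kept the names of these genes. Most neurons, oligodendrocytes, astrocytes, microglia and OPC of NS lay in other clusters than those of COL, so a level is compared over the whole type.

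Cytokines of this family, such as oncostatin M (Osm) and leukaemia inhibitory factor (Lif), bind receptors that all share the chain gp130, the product of Il6st. Jak kinases on the receptor then phosphorylate Stat3, which enters the nucleus and switches on target genes. Socs3 is such a target and blocks the receptor and its kinases, so its RNA is widely read as a trace of recent signalling. In the injured brain the pathway is known for its part in the reaction of astrocytes and in inflammation.

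In the GRCm38 assembly and the GENCODE annotation the ligand genes Osm (chr11:4236420-4241026, plus strand) and Lif (chr11:4257557-4272514, plus strand) were neighbours, 16531 bases apart. The receptor genes Osmr (chr15:6813577-6874969, minus strand) and Lifr (chr15:7090614-7197489, plus strand) lay 215645 bases apart. Socs3 (chr11:117966079-117970047) and Stat3 (chr11:100885098-100939540) lay on the minus strand of the same chromosome. Bcl3 was at chr7:19808462-19822770 (minus strand), Il6ra at chr3:89864059-89913196 (minus strand), Il6st at chr13:112464070-112510086 (plus strand) and Jak2 at chr19:29251828-29313080 (plus strand). All 10 are protein-coding genes.

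The promoter windows of 4 members, Socs3, Stat3, Bcl3 and Osmr, are shown because such windows are the stretches on which a transcription factor such as Stat3 would act. The windows, from RefSeq on GRCm38.p6, run from 250 bases before to 50 bases after the RefSeq start of the gene, 5′ to 3′ on the strand of the gene. That start lay 681 bases inside the GENCODE locus given above for Socs3, 656 inside for Osmr, 15 inside for Bcl3 and at its edge for Stat3. Capitals mark the letters TTCNNNGAA, the palindrome bound by STAT factors, which reads alike on both strands.
Socs3, chr11:117969317-117969616, minus strand: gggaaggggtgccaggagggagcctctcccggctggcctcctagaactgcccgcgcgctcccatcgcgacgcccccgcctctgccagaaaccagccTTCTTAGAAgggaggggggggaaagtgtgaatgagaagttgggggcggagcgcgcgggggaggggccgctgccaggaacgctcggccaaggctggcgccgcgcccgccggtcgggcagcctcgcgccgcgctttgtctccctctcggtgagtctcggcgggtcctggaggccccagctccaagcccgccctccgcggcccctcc
Stat3, chr11:100939491-100939790, minus strand: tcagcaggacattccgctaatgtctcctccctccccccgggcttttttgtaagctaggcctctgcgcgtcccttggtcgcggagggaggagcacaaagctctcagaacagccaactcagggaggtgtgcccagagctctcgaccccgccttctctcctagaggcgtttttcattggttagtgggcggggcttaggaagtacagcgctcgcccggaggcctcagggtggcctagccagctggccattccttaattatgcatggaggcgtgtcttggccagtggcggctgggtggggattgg
Bcl3, chr7:19822706-19823005, minus strand: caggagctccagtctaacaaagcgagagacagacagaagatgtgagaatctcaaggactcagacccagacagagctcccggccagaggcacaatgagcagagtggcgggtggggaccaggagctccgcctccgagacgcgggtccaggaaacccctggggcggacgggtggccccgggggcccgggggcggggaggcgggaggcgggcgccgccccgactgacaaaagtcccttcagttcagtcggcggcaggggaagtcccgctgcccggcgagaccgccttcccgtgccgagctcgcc
Osmr, chr15:6874264-6874563, minus strand: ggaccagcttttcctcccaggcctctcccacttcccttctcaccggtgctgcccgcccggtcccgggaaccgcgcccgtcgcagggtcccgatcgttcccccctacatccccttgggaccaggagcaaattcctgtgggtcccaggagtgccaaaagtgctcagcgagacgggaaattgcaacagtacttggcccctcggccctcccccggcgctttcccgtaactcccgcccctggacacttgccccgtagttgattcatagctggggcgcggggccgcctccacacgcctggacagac
Among the 10 windows found for 9 members, which lacked Osm, the Socs3 window alone held these letters, starting -154 bases from its RefSeq start. The same letters stood in 2726 of 32851 windows, 8.30% of all. A match of letters does not show that a factor binds there, and windows without a match say nothing about the factor.

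Summed over all nuclei, 9 of the 10 members were higher in both COL libraries than in both NS libraries, with Lifr as the exception. This held for 24.1% of all 25570 genes tested, and since the members had been chosen on this contrast nothing is read from their count. Within types, both COL libraries were above both NS libraries for 9 of the 9 members that passed the filter on low counts in neurons (20.0% of all genes), 6 of 8 in oligodendrocytes (29.6%), 6 of 6 in astrocytes (22.7%), 7 of 8 in OPC (28.0%) and 5 of 6 in vascular cells (27.1%). In microglia 3 of 6 were above (28.8%) and 2 below (35.3%). These counts rest on the same choice, and on members that could pass the filter through COL alone, so nothing is read from them either. The remaining members were too rare in a type to be fitted, and are given by their UMIs.

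**Figure D1:**
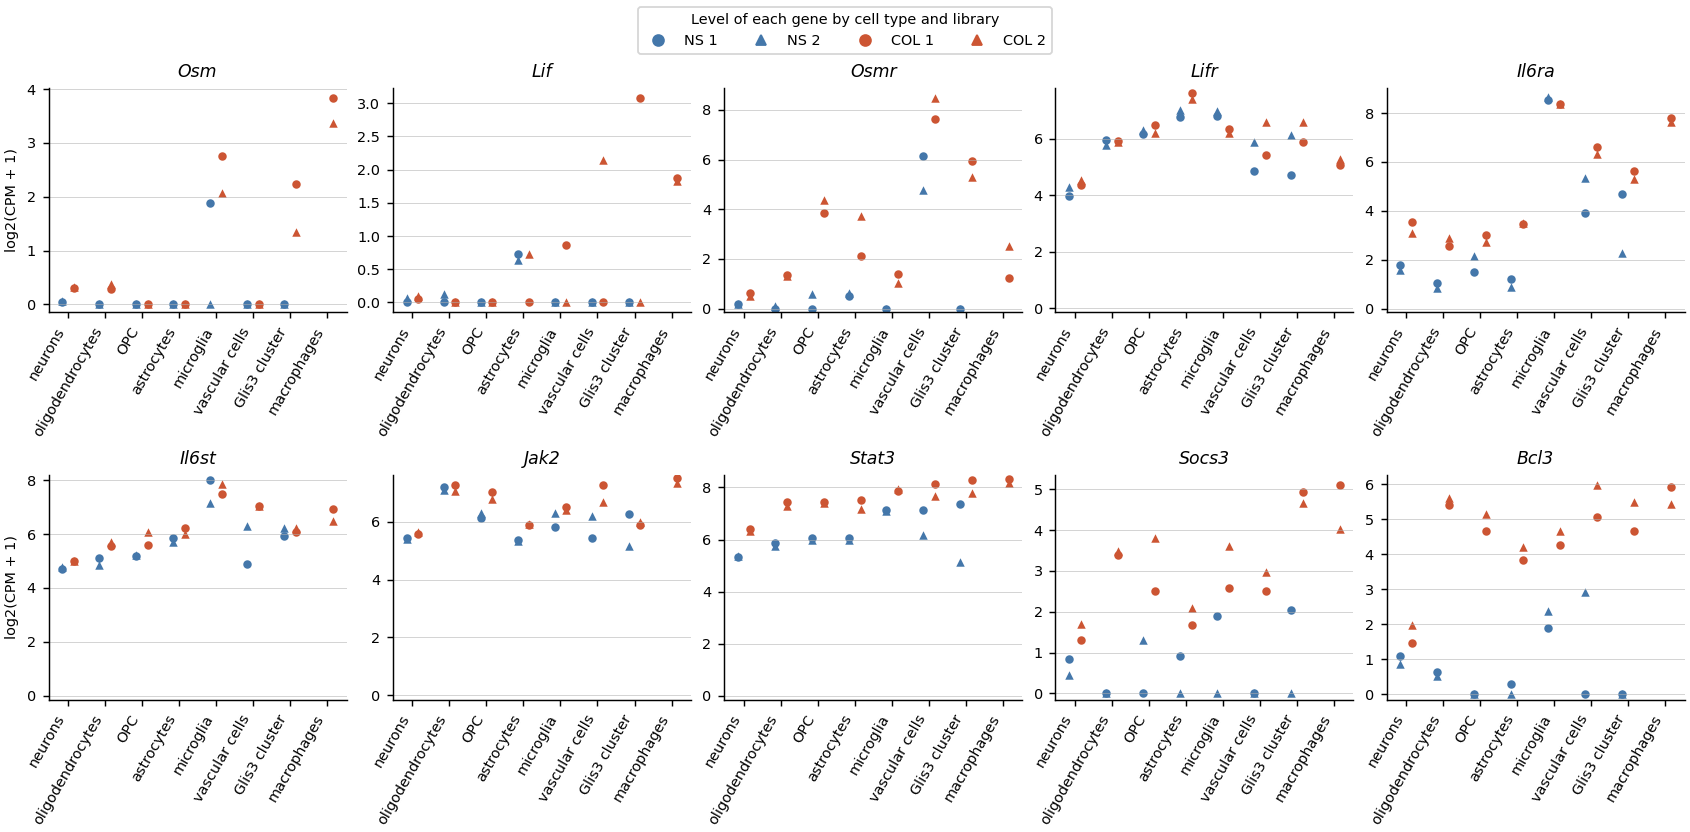
Level of each gene as log2(CPM + 1) by cell type, 1 point per library (blue NS, red COL; circles replicate 1, triangles replicate 2; points with at least 20 nuclei). Stat3 and Bcl3 of COL lay above NS in every type shown with NS nuclei, Osm was highest in macrophages, and Osmr in vascular cells.

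The ligands were rare. Osm, a cytokine made by myeloid cells, had 4 and 2 UMIs in the NS libraries and 49 and 48 in the COL libraries. Of the 97 UMIs in COL, 43.3% came from macrophages and 13.4% from microglia, which made up 6.48% and 5.93% of the nuclei. Its level in COL macrophages was 13.2 and 9.36 CPM, and in COL microglia 5.77 and 3.21 CPM, so the libraries of the macrophages lay above those of the microglia. In NS microglia it was 2.70 and 0 CPM. No Osm UMI was found in astrocytes, OPC or vascular cells of any library. Neurons held 12 and 11 Osm UMIs in COL against 2 and 2 in NS, which came to 0.242 CPM ± 0.00844 (SD, n = 2) and 0.0396 CPM ± 0.00574 (SD, n = 2). In the same neurons the summed macrophage markers were 15.9 and 30.5 CPM in COL and 7.88 and 8.73 CPM in NS, with 6 of 9 markers higher and none at 0, and the part of other cells' RNA in this difference was not tested. Lif had 6 and 5 UMIs in NS and 11 and 12 in COL. Macrophages held 4 and 6 of those in COL, and astrocytes 3 and 2 of those in NS, so its levels by type rest on single molecules.

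The receptors split by cell type. Osmr, the chain that joins gp130 to bind oncostatin M, was highest in vascular cells, with 5, 4, 43 and 103 UMIs in NS 1, NS 2, COL 1 and COL 2. That was 70.6 and 26.1 CPM in NS and 200 and 353 CPM in COL, without overlap, and the log2 fold change was 2.66 (SE 0.53). It was 3.32 without NS 1, 1.98 without NS 2 and 4.20 with nuclei typed by their own marker score, the ends of its range over 11 other settings being 1.98 and 4.20. With 28 to 63 vascular nuclei in a library these levels are imprecise, and a shift in the mix of vascular subtypes between the groups was not tested. The Glis3 cluster followed with 0 and 0 UMIs in NS and 33 and 25 in COL (61.4 and 38.1 CPM). Its mean of 49.8 CPM ± 16.5 (SD, n = 2) was at least 9.58-fold higher than the level that 3 UMIs over both NS libraries would give. OPC followed in COL, with 0, 1, 23 and 53 UMIs (0, 0.485, 13.6 and 19.8 CPM). In COL the libraries of vascular cells, the Glis3 cluster and OPC did not overlap, and those of OPC lay above those of astrocytes (3.31 and 12.4 CPM). Astrocytes had 2, 2, 3 and 19 UMIs, so their COL libraries differed by more than 3-fold. Oligodendrocytes had 0, 1, 15 and 15 UMIs, 1.59 and 1.48 CPM in COL. Microglia had 0, 0, 2 and 2. Of all Osmr UMIs in COL, 34.8% came from vascular cells, 18.1% from OPC and 13.8% from the Glis3 cluster.

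Lifr, the chain for leukaemia inhibitory factor, differed in both directions between the groups, depending on the type. Astrocytes had 109 and 127 CPM in NS and 196 and 169 CPM in COL (log2 fold change 0.70, SE 0.18), and their COL level was the highest of all types without overlap with the next. Microglia had 112 and 127 CPM in NS and 80.0 and 72.9 CPM in COL (log2 fold change -0.58, SE 0.21), with no overlap either. The microglial direction held under 10 of 11 other settings, but turned to 0.36 when each nucleus was typed by its own marker score instead of its cluster. Oligodendrocytes (61.7, 54.0, 60.3 and 58.5 CPM) and OPC (71.1, 77.6, 89.3 and 72.9 CPM) overlapped between the groups. Neurons were lowest of the 6 types fitted in both groups, at 14.6 and 18.4 CPM in NS and 19.4 and 22.6 CPM in COL. A single neuron cluster, led by Kcnmb2, stood apart with 43.1 and 51.7 CPM in NS and 161 and 127 CPM in COL. Without this cluster, left out after its values were seen, the neurons had 14.2 and 17.9 CPM in NS and 13.4 and 19.1 CPM in COL, so the groups overlapped, while the other 8 members fitted in neurons stayed above NS in both COL libraries. The other neuron clusters lay between 7.08 and 25.3 CPM in every library with at least 20 nuclei.

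Il6ra, the receptor chain for Il6, was a gene of microglia, with 373 and 398 CPM in NS and 326 and 333 CPM in COL. Their COL libraries lay below NS by -0.15 on the log2 scale (SE 0.16), a difference smaller than its error, and the sign turned to 0.70 with typing by marker score. COL macrophages had 219 and 195 CPM and the Top2a cluster 240 and 188 CPM. Outside these cells both COL libraries were above both NS libraries in every type fitted. Oligodendrocytes had 1.08 and 0.8 CPM in NS and 4.97 and 6.51 in COL, and astrocytes 1.32 and 0.837 against 9.92 and 10.5 CPM. Macrophage markers were also higher there in COL, with 7 of 9 markers above NS in each type and none at 0. Their sum was 26.4 and 44.9 CPM against 2.44 and 4.53 CPM in oligodendrocytes, and 31.9 and 50.4 against 8.83 and 14.5 CPM in astrocytes. Per 100 UMIs of microglia and macrophage markers, Il6ra had 4.02 and 3.48 UMIs in COL oligodendrocytes, against 6.4 and 5.86 in macrophages and 8.70 and 9.24 in microglia. In COL astrocytes, on 9 and 16 Il6ra UMIs, it had 8.26 and 5.57, within the range of the macrophages and microglia or just below it. The part of RNA from these cells in the Il6ra of glia was not tested. Neurons had 137 and 90 UMIs in NS and 540 and 335 in COL (2.43 and 1.96 against 10.6 and 7.56 CPM, log2 fold change 2.24, SE 0.31). Per 100 of the same marker UMIs these were 14.3 and 6.01 in COL. Within neurons it was uneven, with 20.1 and 22.4 CPM in the COL nuclei of the Lef1 cluster and 11.6 and 17.5 CPM in those of the Necab1 cluster, each named by its leading gene. The cluster led by 6330411D24Rik had 4.26 and 3.44 CPM in the same libraries.

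Il6st, the shared chain gp130, had the highest mean of the 6 types in microglia, where the groups overlapped (260 and 142 CPM in NS, 180 and 233 CPM in COL). The sign of the difference there, 0.12 (SE 0.23), held under 9 of 11 other settings. In oligodendrocytes it was 33.6 and 27.7 CPM in NS and 46.6 and 50.9 CPM in COL (log2 fold change 0.76, SE 0.17), and in OPC 35.6 and 36.4 against 46.7 and 65.8 CPM (0.69, SE 0.20). Neurons were higher by 0.44 on the log2 scale (SE 0.15), at 24.8 and 26.1 CPM in NS and 30.6 and 30.9 CPM in COL, a value that fell to 0.27 with plain UMI totals in place of TMM scaling. Vascular cells had 28.2 and 78.3 CPM in NS and 131 and 130 CPM in COL, on 2, 12, 28 and 38 UMIs. The shared chain was thus measured in every type of both groups.

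**Figure D2:**
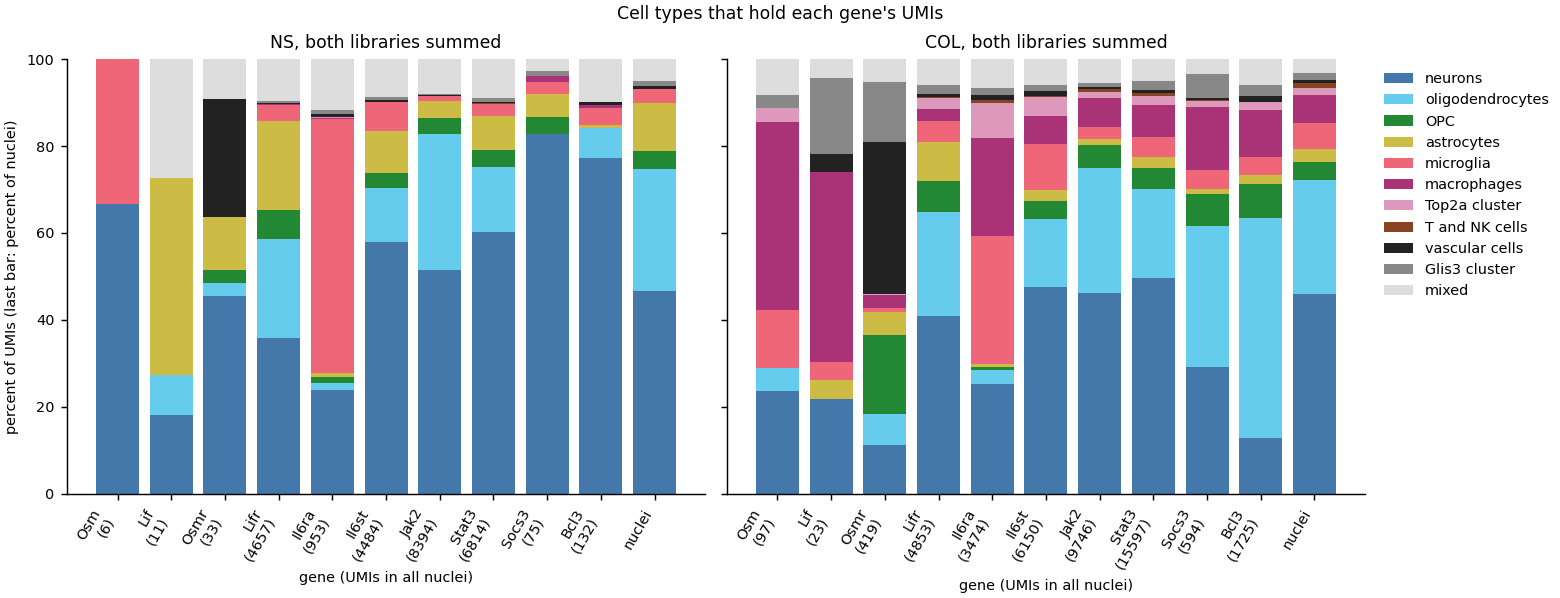
Percent of the UMIs of each gene (y axis) that came from each cell type, both libraries of a group summed, with the number of UMIs in brackets and the percent of nuclei as the last bar. Socs3 and Bcl3 UMIs came mostly from neurons in NS (82.7% and 77.3%), while oligodendrocytes held 32.5% and 50.6% of them in COL. Of the UMIs of all genes, neurons held 56313568 of 77546840 in NS 1 and 45831031 of 68723738 in NS 2.

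Of the kinase and the transcription factor, Stat3 differed more. Jak2, a kinase bound to these receptors, overlapped between the groups in oligodendrocytes (146 and 137 CPM in NS, 154 and 132 CPM in COL), where its mean was highest of the 6 types in both groups. In OPC it was 68.4 and 77.1 CPM in NS and 128 and 110 CPM in COL (log2 fold change 0.73, SE 0.17), and in astrocytes 40.6 and 39.0 against 58.4 and 59.6 CPM (0.65, SE 0.19). Both COL libraries were also above NS in vascular cells (0.95, SE 0.48, on 3, 11, 33 and 30 UMIs). The same held in microglia (0.46, SE 0.24) and neurons (0.33, SE 0.13). Stat3 was higher in both COL libraries in all 6 types fitted. Oligodendrocytes had 57.5 and 53.0 CPM in NS and 175 and 153 CPM in COL (1.66, SE 0.17). OPC had 66.6 and 61.6 against 173 and 167 CPM (1.44, SE 0.15), and astrocytes 66 and 63.0 against 182 and 145 CPM (1.41, SE 0.18). Neurons were lowest of the 6 types in both groups, at 39.7 and 40.6 CPM in NS and 83.0 and 79.4 CPM in COL (1.18, SE 0.15). Microglia had the highest mean in NS, 138 and 137 CPM, which lay within the spread of vascular cells (141 and 71.8 CPM), and had 233 and 244 CPM in COL (0.87, SE 0.17). In COL macrophages had 319 and 284 CPM, and overlapped only with the Glis3 cluster (313 and 218 CPM). The Glis3 cluster overlapped in turn with vascular cells (280 and 202 CPM) and microglia. Neuron clusters varied, from 65.7 and 49.8 CPM in the COL libraries of the 6530403H02Rik cluster to 146 and 116 CPM in the Kcnmb2 cluster.

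Socs3, the feedback brake on the receptor, had 52 and 23 UMIs in the NS libraries and 258 and 336 in the COL libraries. In oligodendrocytes none was counted in 2119 and 3521 nuclei of NS, and 89 and 104 were counted in 1626 and 1557 nuclei of COL. The COL level of 9.84 CPM ± 0.599 (SD, n = 2) was at least 61.1-fold higher than the level that 3 UMIs over both NS libraries would give. These UMIs came from 79 and 87 nuclei. Of these, 68 and 80 were among the 1391 and 1211 COL nuclei of the larger of the 2 COL oligodendrocyte clusters. The other 11 and 7 were among the 233 and 341 COL nuclei of the smaller. Per 100 UMIs of microglia and macrophage markers, Socs3 had 7.61 and 5.48 UMIs in these oligodendrocytes and 0.970 and 0.460 in macrophages, and the part of RNA from other cells was not tested. In COL the Glis3 cluster (29.8 and 24.4 CPM) and macrophages (33.1 and 15.3 CPM) overlapped and lay above oligodendrocytes (9.41 and 10.3 CPM). The COL libraries of OPC (4.73 and 13.1 CPM) and of microglia (4.95 and 11.3 CPM) lay on either side of the oligodendrocytes, and in NS these types had 0 and 1.46 CPM and 2.70 and 0 CPM. Astrocytes had 4 and 0 UMIs in NS and 2 and 5 in COL, too few to place them. Neurons had 45 and 17 UMIs in NS and 74 and 99 in COL (0.799 and 0.371 against 1.46 and 2.23 CPM, log2 fold change 1.80, SE 0.44). The COL level of neurons lay below that of oligodendrocytes, OPC and microglia of COL. Macrophage markers were higher in these neurons too, as given above for Osm, and the part of other cells' RNA in their Socs3 was not tested.

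Bcl3, a nuclear partner of NF-kB and a target of Stat3, behaved most like Socs3 among the members. Oligodendrocytes had 4 and 5 UMIs in NS and 392 and 481 in COL, which is 0.542 and 0.444 CPM against 41.5 and 47.4 CPM (log2 fold change 6.55, SE 0.29). That level was close to the 59.6 and 42.1 CPM of COL macrophages, with which it overlapped. Per 100 UMIs of microglia and macrophage markers Bcl3 had 33.5 and 25.4 UMIs in COL oligodendrocytes and 1.75 and 1.26 in macrophages. The larger COL oligodendrocyte cluster had 46.7 and 59.1 CPM and the smaller 17.7 and 15.7 CPM. OPC had 0 and 0 UMIs in NS and 41 and 92 in COL (24.2 and 34.4 CPM), at least 41.6-fold above the 3-UMI level of NS. Astrocytes had 1 and 0 UMIs in NS and 12 and 27 in COL, and microglia 2 and 3 against 22 and 46 (2.69, SE 0.54). Neurons, with 1.15 and 0.807 CPM in NS and 1.77 and 2.98 CPM in COL, were the lowest of all types in COL.

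**Figure D3:**
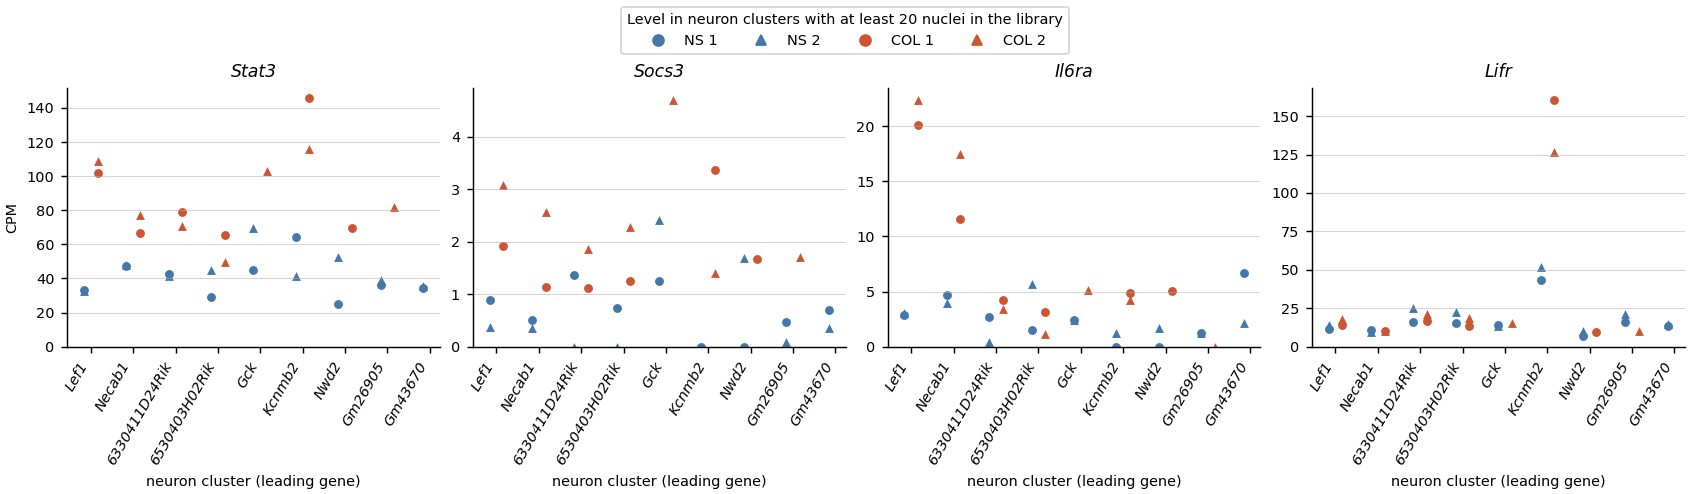
CPM of Stat3, Socs3, Il6ra and Lifr (y axes) in each neuron cluster, named by its leading gene, 1 point per library with at least 20 nuclei of the cluster (blue NS, red COL; circles replicate 1, triangles replicate 2). Il6ra of COL was highest in the Lef1 and Necab1 clusters, and Lifr in the Kcnmb2 cluster, where COL had 161 and 127 CPM.

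Other genes of the pathway were then tested between COL and NS. The list of 48 held further ligands, receptors, kinases and STAT factors, brakes and known Stat3 targets. Each of the 6 types fitted was tested with edgeR's quasi-likelihood test over all genes with Benjamini-Hochberg adjustment. The Glis3 cluster was not tested between the groups. In oligodendrocytes 16 of the 37 genes tested rose and none fell, while 10.1% of all 17138 genes rose and 12.4% fell. In OPC 10 of 27 rose and none fell (8.10% of all genes rose and 9.83% fell). In microglia 10 of 30 rose and none fell, while 1297 of 10978 genes (11.8%) rose and 1316 fell. In astrocytes 6 of 29 rose and none fell (6.21% and 8.02% of all genes). Thinned to at most 2000 UMIs per nucleus, 2 were called in OPC and 2 in astrocytes, and DESeq2 called 5 and 3. Without NS 1 the count was 5 in OPC and 10 in oligodendrocytes. The median log2 fold change of the genes of the list was 0.85 in oligodendrocytes, 0.58 in OPC, 0.42 in astrocytes and 0.34 in microglia, where that of all genes lay between -0.03 and 0.01. The list was drawn up with earlier results of these libraries known, so its counts, its median and its calls are not independent evidence of its direction. In neurons edgeR called none of 44 (0% of 23744 genes), but 21 had an unadjusted p under 0.05, DESeq2 called 13, and edgeR called 16 without COL 2 and 5 without COL 1. None of 11 was called in vascular cells by either tool (0.398% of 4520 genes rose and 1.24% fell in edgeR), with 1 at an unadjusted p under 0.05 in edgeR. With each nucleus typed by its own marker score edgeR called more, 9 of 28 in vascular cells, 18 of 35 in microglia and 16 of 37 in astrocytes, and without the filter on low counts 2 in vascular cells, 17 in OPC and 7 in neurons. Without that filter 1 gene also fell in oligodendrocytes and 1 in microglia.

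The targets of Stat3 held most of these calls, 11 of 18 tested in oligodendrocytes, 8 of 13 in OPC, 8 of 14 in microglia and 5 of 14 in astrocytes. Serpina3n, a serine protease inhibitor of reactive glia, rose in oligodendrocytes from 4.34 and 2.22 CPM in NS to 78.7 and 135 CPM in COL (log2 fold change 5.15, SE 0.34, edgeR adjusted p = 0.000435). It also rose by 6.29 in OPC, 3.81 in astrocytes and 3.61 in microglia (edgeR adjusted p of 2.63e-05, 0.00056 and 0.00131). Its COL level in oligodendrocytes was above that in astrocytes, 26.4 and 62.2 CPM. Cd44, a receptor for hyaluronan, rose in the same 4 types. It went from 2.30 and 3.38 to 25.6 and 25.5 CPM in oligodendrocytes (3.20, SE 0.27, edgeR adjusted p = 0.000829) and from 2.74 and 2.91 to 50.9 and 62.8 CPM in OPC (4.34, SE 0.31, adjusted p = 1.41e-05). Vim, an intermediate filament gene, also rose in these 4 types, by 3.68 in oligodendrocytes and 2.76 in astrocytes on the log2 scale. In OPC it went from 2 and 1 UMIs to 17 and 62, and in microglia from 0 and 1 to 24 and 62. Gfap, the filament of reactive astrocytes, rose in astrocytes from 9.27 and 9.76 to 61.7 and 106 CPM (3.26, SE 0.27, edgeR adjusted p = 0.000152). It rose in oligodendrocytes from 1.36 and 1.42 to 5.18 and 13.3 CPM (2.78, SE 0.49, edgeR adjusted p = 0.00835), and in OPC from 1 and 2 UMIs to 32 and 32 (edgeR adjusted p = 0.00127). In oligodendrocytes 9 of 10 astrocyte markers were lower in both COL libraries, and their sum was 383 and 391 CPM against 595 and 501 CPM in NS. The part of astrocyte RNA in the Gfap of oligodendrocytes and OPC was not tested. Macrophage markers were higher in oligodendrocytes and astrocytes, as given above for Il6ra. In OPC their sum was 26.6 and 38.1 CPM against 3.65 and 5.82 CPM, and in microglia 528 and 544 against 154 and 261 CPM, with 6 of 9 markers higher in each. Their part in Cd44 and Vim of these 4 types was not tested. COL macrophages had 803 and 438 CPM of Cd44 and 199 and 170 CPM of Vim.

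Further targets rose in fewer types. Bcl6, a transcriptional repressor, rose in oligodendrocytes (1.56, SE 0.20, edgeR adjusted p = 0.00383), microglia (1.76, adjusted p = 0.00194) and OPC (0.63, adjusted p = 0.0464). Bcl2l1, which protects cells from apoptosis, rose in the same 3 types by 0.87, 0.77 and 0.66. Cebpd, a transcription factor, rose in oligodendrocytes (2.00), OPC (1.71) and astrocytes (1.75). DESeq2 did not call Bcl6, Bcl2l1 or Cebpd in OPC (DESeq2 adjusted p of 0.24, 0.119 and 0.167). Lcn2, an iron-binding secreted protein, rose in oligodendrocytes, from 0 and 0 UMIs to 10 and 26 (edgeR adjusted p = 0.0106), and the immediate early gene Fos rose there by 1.74 (adjusted p = 0.012). Il4ra, a receptor chain, rose most in microglia, from 29.7 and 22.6 to 88.2 and 105 CPM (1.96, SE 0.27, edgeR adjusted p = 0.000293), and Nfkbiz, a regulator of NF-kB, rose in microglia (1.23) and OPC (1.69). Hif1a, the oxygen-responsive factor, rose in microglia (0.95, edgeR adjusted p = 0.00877). Junb, an AP-1 factor, was not called in any type, with log2 fold changes from -0.89 in neurons to 0.85 in oligodendrocytes (edgeR adjusted p of 0.111 and 0.0889), and DESeq2 called its lower level in neurons.

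Among the STAT factors, Stat2 rose in all 4 glial types, by 0.86 in oligodendrocytes (SE 0.17, edgeR adjusted p = 0.0118), 0.89 in OPC (0.0207), 0.73 in astrocytes (0.0359) and 1.43 in microglia (0.00115). DESeq2 did not call Stat2 in OPC (DESeq2 adjusted p = 0.122). Stat2 acts in interferon signalling. Jak1, another kinase of these receptors, gave 0.24 in oligodendrocytes (SE 0.16, edgeR adjusted p = 0.312) and 0.29 in neurons. It gave 0.16 in OPC, 0.13 in astrocytes and 0.11 in microglia, and was called in none of these types. In vascular cells it gave 1.32 (SE 0.39, edgeR adjusted p = 0.102), on 6, 11, 43 and 60 UMIs. Of the 8 brakes, Socs2, a relative of Socs3, rose in oligodendrocytes from 5.69 and 6.49 to 19.4 and 11.4 CPM (1.41, SE 0.33, edgeR adjusted p = 0.0183), with 2 others. Ptpn1, a phosphatase that acts on Jak kinases, rose in microglia (0.74, edgeR adjusted p = 0.00603) and OPC (0.58, edgeR adjusted p = 0.0447). DESeq2 did not call Ptpn1 in OPC (DESeq2 adjusted p = 0.261). No further ligand or receptor was called in any type. Il6 itself had 9, 8, 6 and 10 UMIs in NS 1, NS 2, COL 1 and COL 2 over all nuclei. Clcf1, a ligand of the ciliary neurotrophic factor receptor that was singled out after its values were seen, had 16, 13, 107 and 61 UMIs. It rose over all nuclei (log2 fold change 2.78, SE 0.50, edgeR adjusted p = 0.0279), where 5.02% of genes rose and the make-up of cell types differs too.

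**Figure D4:**
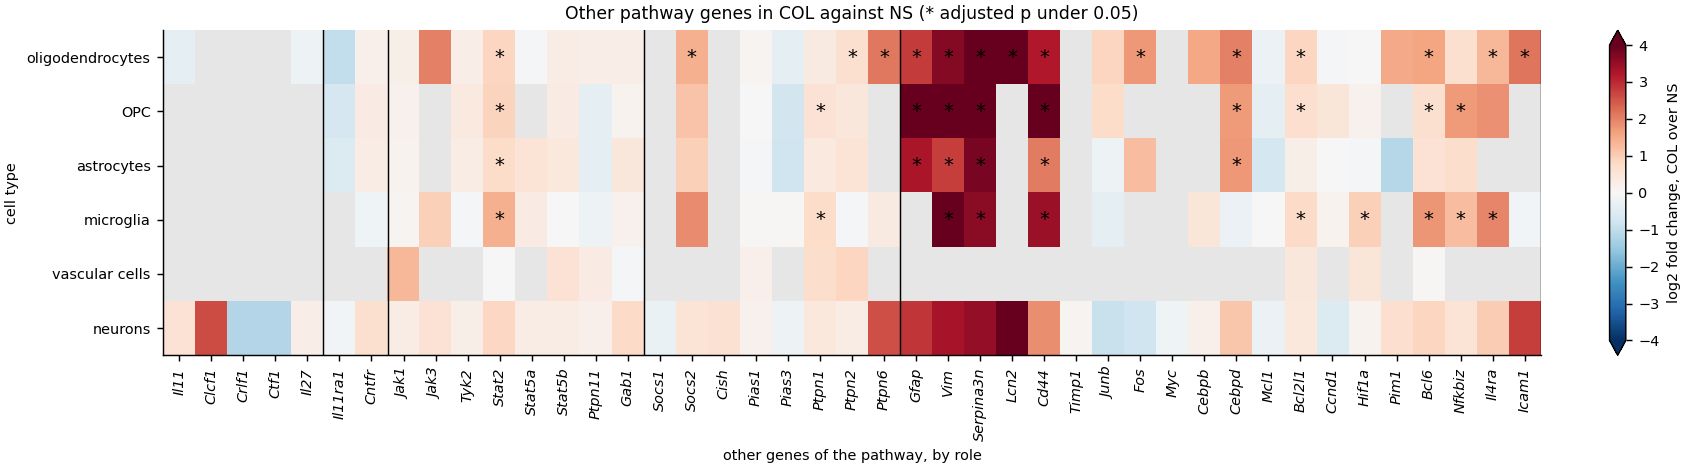
Log2 fold change of COL over NS (colour, limited to 4 either way) of the other pathway genes that passed the filter in at least 1 type, ordered by role between the vertical lines (ligands, receptors, kinases and STAT factors, brakes, Stat3 targets). Asterisks mark an edgeR adjusted p under 0.05 and grey marks genes not tested in a type, and a gene of the list that is not reported here is left out. Serpina3n, Cd44 and Vim carry asterisks in all 4 glial types, and neurons carry none.

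A comparison within libraries asked what went with Socs3 in single nuclei. This contrast did not choose the members, but the members and the list had been chosen with earlier results of these data known. Every oligodendrocyte with a Socs3 UMI came from COL, so calls among these genes are not independent evidence. In each library the nuclei with a Socs3 UMI were summed and set against as many nuclei of the same type without one, each the nearest in total UMIs. In COL oligodendrocytes 79 and 87 positive nuclei had median totals of 6736 and 7029 UMIs, and the matched negative nuclei 6737 and 7034. Positive nuclei held more Stat3, 283 against 139 CPM in COL 1 and 257 against 144 CPM in COL 2 (log2 difference 0.89, SE 0.17, edgeR adjusted p = 2.26e-05). They held more Bcl3, 100.4 against 43.8 CPM and 90.5 against 37.5 CPM (1.2, SE 0.27, edgeR adjusted p = 0.000745). Serpina3n was higher too, 161 against 89.4 CPM and 264 against 109 CPM (1.07, SE 0.19, edgeR adjusted p = 3.87e-06), and so was Cd44, 58.4 against 18.2 CPM and 46.0 against 27.4 CPM (1.11, SE 0.34, adjusted p = 0.042). The direction was the same in 2 of 2 libraries for all 4 genes. Positive and negative nuclei of a library came from the same pool of mice, so these p-values do not measure the spread between pools. Of the members, 5 of 9 could be tested and 2 rose, and of the other pathway genes 17 of 48 could be tested and 2 rose, while 1.36% of all 7593 genes rose and 1.44% fell. Jak2 (0.29, SE 0.18), Il6st (0.39, SE 0.28), Lifr (-0.38, SE 0.32) and Jak1 (0.13, SE 0.28) were not called. The calls depended on the tool and the filter. DESeq2 called 14 genes in place of 212, with a DESeq2 adjusted p of 0.312 for Stat3 and 0.31 for Serpina3n and none given for Bcl3 and Cd44. The log2 differences in DESeq2 were 0.90 for Stat3, 1.04 for Serpina3n, 1.2 for Bcl3 and 1.16 for Cd44. Without the filter on low counts edgeR called 0 genes, with 783 at an unadjusted p under 0.05, and gave 0.89 for Stat3 and 1.07 for Serpina3n. Within the larger COL oligodendrocyte cluster alone edgeR called 66 genes higher and 68 lower. Stat3, Bcl3 and Serpina3n were called again (edgeR adjusted p of 0.0155, 0.0132 and 0.00554) and Cd44 was not (0.409). Their log2 differences there were 0.65, 1.02, 0.77 and 0.82. Against all negative nuclei of the type, not matched on depth, edgeR called 237 higher and 215 lower. Fos was then called too (1.92, edgeR adjusted p = 0.000102).

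**Figure D5:**
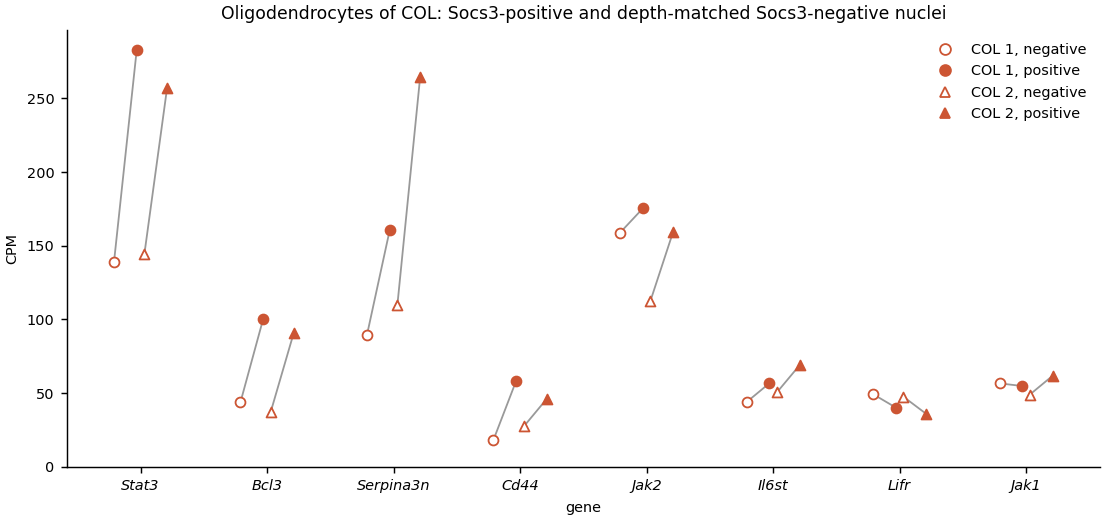
CPM (y axis) of 8 genes in Socs3-positive (filled) and depth-matched Socs3-negative (open) oligodendrocytes of the COL libraries (circles COL 1, triangles COL 2), joined by lines within a library. Stat3, Bcl3, Serpina3n and Cd44 were higher in positive nuclei of both libraries, Stat3 at 283 and 257 CPM against 139 and 144 CPM.

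The 8 genes outside the lists with the smallest adjusted p differed in both directions. Nckap5 was lower in positive nuclei, 63.9 against 292 CPM in COL 1 and 35.9 against 210 CPM in COL 2 (log2 difference -2.38, edgeR adjusted p = 7.64e-26). Synpr (-1.64), which encodes a protein of synaptic vesicles, the semaphorin gene Sema6a (-1.06) and Sh3gl3 (-1.30) were lower as well. Rhoj, a small GTPase, was higher, 900 against 425 CPM and 650 against 151 CPM (1.51, edgeR adjusted p = 2.09e-22), as were Ermard (1.33), the mechanosensitive channel gene Piezo2 (1.05) and the kainate receptor gene Grik2 (0.71).

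The other types gave little. In neurons of all 4 libraries, with 40, 17, 70 and 96 positive nuclei, edgeR called 4 of 10941 genes (0.0183% rose and as many fell), 625 had an unadjusted p under 0.05 and DESeq2 called 1. None was a member, of which 5 were tested, or belonged to the other pathway genes, of which 21 were tested. Meis2, a homeobox gene of some thalamic and GABA neurons, was lower in positive nuclei of 4 of 4 libraries (-1.41, SE 0.17, edgeR adjusted p = 0.00139), and Megf11 (-1.03, adjusted p = 0.0271) and Col18a1 (1.68, adjusted p = 0.0271) also differed the same way in all 4. The fourth, Gm20757, had 78 of its 88 UMIs in positive nuclei from COL 2. Stat3 had a log2 difference of 0.57 (SE 0.15, edgeR adjusted p = 0.378) in neurons and 0.14 (SE 0.24, adjusted p = 0.97) in macrophages. Macrophages and the Glis3 cluster gave 0 calls in edgeR and 0 in DESeq2, with 235 and 122 genes at an unadjusted p under 0.05 in edgeR. These counts depended on the setting. With doublets removed edgeR called 5 higher and 7 lower in the Glis3 cluster, 2 and 1 in macrophages, and 0 and 1 in neurons. Without the filter on low counts it called 14 higher and 7 lower in the Glis3 cluster, 38 and 30 in neurons and none in macrophages. Cd44 was among the lower genes of the Glis3 cluster in both settings (edgeR adjusted p of 0.0116 with doublets removed and 0.00518 without the filter), and Gfap with doublets removed (0.0116). There Cd44 had 131 CPM in positive against 722 CPM in negative nuclei of COL 1, and 99.4 against 675 CPM in COL 2 (log2 difference -2.62, SE 0.50, edgeR adjusted p = 0.37). Its direction was thus the opposite of that in oligodendrocytes, and this difference between the types was not tested. Against all negative nuclei, not matched on depth, it called 126 higher and 163 lower in neurons. Il6ra was among the higher genes of neurons without the filter and against all negative nuclei (edgeR adjusted p of 0.0411 and 0.0267), and no other gene of the pathway was called there. In neurons 1 gene was called without NS 2 and 1 without COL 1. OPC and microglia had at least 10 positive nuclei in COL 2 alone and were not compared. Whether Stat3 differs more in oligodendrocytes than in these types was not tested.

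Over 24 sums of library and cell type (6 types in 4 libraries), and leaving the members aside, the level of Socs3 as log2(CPM + 1) ran most closely with Cd44 (Pearson r = 0.897), Serpina3n (0.878), Gpnmb (0.852), H2-Aa (0.844), Lyz2 (0.84), Cd74 (0.834), Thbs1 (0.823) and Lgals3 (0.816), out of 13648 genes. Among the members, Bcl3 gave 0.859, which lay between Serpina3n and Gpnmb, and Stat3 gave 0.732, Jak2 0.457, Il6st 0.447, Il6ra 0.341, Osmr 0.324 and Lifr 0.159. The points share libraries, so these are descriptions of 24 values and carry no p. They span both groups, and Socs3 was higher in both COL libraries in each of the 6 types. The r values thus also carry the difference between COL and NS, which was known when the members were chosen. The Glis3 cluster and macrophages, whose Socs3 levels were the highest in COL, were not among the points. Lyz2, Cd74, Thbs1 and Lgals3 are abundant in macrophages, where COL had 636 and 803 CPM of Lyz2, and 7 of the 8 genes had a COL mean in macrophages above that of every type compared. Serpina3n was the exception, with 26.5 and 60.8 CPM in macrophages and 78.7 and 135 CPM in oligodendrocytes. In the order by likeness, 4 to 7 of the 8 genes remained among the first 8 when a library was left out.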

How the data were processed

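Single-nucleus RNA was measured with the 10x Genomics system in 4 libraries of mouse thalamus, 2 per group. The authors aligned the reads with Cell Ranger 1.2.0 to mm10 per the labels and deposited whole-number UMI counts per gene and nucleus. Nuclei with more than 50 genes and under 5% mitochondrial UMIs were kept. Clustering used Seurat 5.3.0 (4976 variable genes without pathway genes, 15 principal components, resolution 0.8, 31 clusters, no integration). Clusters were named from marker lists by a rule written after the clusters were seen: at least 3 markers detected, a mean marker score of at least 0.3 and 1.5 times that of the next type. Clusters with more than 50% doublets called by Scrublet (scanpy 1.11.5) were set aside as mixed, and single doublets were kept. The members and lists were chosen with earlier results of these data known.

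UMIs were summed per library and type, and named types with at least 20 nuclei in each library were fitted between the groups. The Glis3 cluster also had at least 20 but carried no type name, and was not fitted between the groups. COL and NS were compared with edgeR 4.0.16 (filterByExpr, TMM, quasi-likelihood test) over all genes, with Benjamini-Hochberg adjustment and a threshold of 0.05. Each library was a pool of 3 mice per the study's methods, so p-values of COL against NS measure the spread between pools. In the Socs3 comparison both sums of a library came from the same pool, so its p-values do not measure that spread. With 2 libraries per group no exact permutation test could reach 0.05. Socs3-positive and depth-matched negative nuclei were summed per library with at least 10 positive nuclei, with the library as a block. Likeness was Pearson's r of log2(CPM + 1) among genes with a mean of at least 5 CPM. All members were named, and of the other genes up to 12 called with the smallest adjusted p per type, with Gfap, Junb and Jak1; outside the lists, up to 8 per comparison. A gene of the list of 48 is counted with it but not reported here by name. A fold against a group without UMIs used 3 UMIs over the group. DESeq2 1.42.0, other typing, filters, scaling and left-out libraries were alternatives, and the Socs3 comparison within a single oligodendrocyte cluster was added after seeing the data. The scripts were tested on simulated counts. Intervals beyond the spread of libraries are not given, and UMI counts carry counting error.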

Additional observations from a re-analysis of the deposited data

Results flagged for a closer look

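Lifr differed between COL and NS in opposite directions in astrocytes and microglia. The log2 fold change was 0.70 in astrocytes and -0.58 in microglia, a gap of 1.28, and both COL libraries lay above NS in astrocytes and below NS in microglia. Il6ra gave 3.25 in astrocytes, on 6, 3, 9 and 16 UMIs in NS 1, NS 2, COL 1 and COL 2, and -0.15 in microglia, a gap of 3.40. Macrophage markers were higher in the same astrocytes (31.9 and 50.4 against 8.83 and 14.5 CPM), Il6ra had 8.26 and 5.57 UMIs per 100 microglia and macrophage marker UMIs there, and their part was not tested. Junb, an AP-1 factor, gave 0.85 in oligodendrocytes and -0.89 in neurons, a gap of 1.73. In each case every COL library of a type lay on the same side of NS, and the difference between the types was not tested. The microglial values of Lifr and Il6ra turned to 0.36 and 0.70 when each nucleus was typed by its own marker score. Between Socs3-positive and matched negative nuclei 3 genes had higher levels in positive nuclei of both COL libraries of oligodendrocytes and lower levels in both COL libraries of another type. Cd44 had a log2 difference of 1.11 in oligodendrocytes and -2.62 in the Glis3 cluster, a gap of 3.73. Stat3 had 0.89 and -0.29 in the same types, a gap of 1.18, and rested on 23 to 27 UMIs per sum in the Glis3 cluster. Jak2 had 0.29 in oligodendrocytes and -0.20 in macrophages, a gap of 0.488. These differences between types were not tested either.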

How the results depend on the processing

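Over the other settings 442 log2 fold changes of members moved by less than the SD between libraries and 120 by more, and no member with a separation of at least 1 on the log2 scale changed its direction. Counts of other pathway genes called depended on the setting. With the replicate block, in which replicate numbers alone tie NS to COL, edgeR called 7 in neurons in place of 0, and the other types kept within 1.5 times of their counts. Deviations of same-numbered libraries had correlations of -0.0144 in neurons to 0.159 in oligodendrocytes. DESeq2 called 13 in neurons, 3 of 6 in astrocytes and 5 of 10 in OPC, and 0 in place of 2 between Socs3-positive and negative oligodendrocytes. Without the filter on low counts 7 were called in neurons, 17 in OPC and 2 in vascular cells, and 0 in Socs3-positive oligodendrocytes and 1, lower in positive nuclei, in the Glis3 cluster, where removing doublets gave 2, both lower. Within the larger COL oligodendrocyte cluster 1 was called. With nuclei typed by their own marker score 16 were called in astrocytes, 18 in microglia and 9 in vascular cells. Thinned to 2000 UMIs, 2 were called in astrocytes and 2 in OPC. Members above NS in both COL libraries were 7 in microglia by marker score and 6 without the filter, in place of 3, and 2 in place of 5 in vascular cells when thinned. Leaving out a library gave 0 to 16 calls in neurons, 10 to 16 in oligodendrocytes, 4 to 5 in astrocytes, 8 to 11 in microglia, 5 to 12 in OPC and 0 to 1 in vascular cells. It left 9 members above NS in neurons, 6 to 7 in oligodendrocytes, 5 to 7 in astrocytes, 3 to 5 in microglia, 7 to 8 in OPC and 5 to 7 in vascular cells. The lowest calls in oligodendrocytes and OPC came without NS 1 and the highest in neurons without COL 2. Of the 8 genes most like Socs3, 5 remained with a pseudocount of 10 and 4 to 7 without a library. Plain UMI totals moved the median log2 fold change of all genes from 0.02 to -0.15 in neurons. Causes were not tested. Levels of Osm and Lif rest on few UMIs, and those of vascular cells on 28 to 63 nuclei per library.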
